A study of Homo sapiens with 8 samples.

Results

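The genes examined here make, bind or break down hyaluronan, and comprise 10 genes listed by symbol: the synthases HAS1, HAS2 and HAS3, the hyaluronidases HYAL1 and HYAL2, the depolymerisation gene CEMIP, and CD44, VCAN, TNFAIP6 and PTX3, whose products bind hyaluronan or its matrix. The list was chosen with earlier results of these data known. All 10 were found among the 23299 gene symbols of the deposited tables. Polyadenylated RNA was sequenced from 2 human fibroblast lines, called line 2 and line 1, that the submitters describe as population controls. Each line received either an siRNA (a short double-stranded RNA that lowers a chosen transcript) directed at SUPT4H1 or a control siRNA, by transfection with the lipid reagent RNAiMax, in 2 samples per siRNA and line, so that 4 SUPT4H1 siRNA samples stood against 4 control siRNA samples. SUPT4H1 encodes SPT4, a subunit of the transcription elongation factor DSIF. All cells were grown in DMEM with fetal bovine serum. Nothing in the labels says that samples of 1 group came from cultures grown apart, so the p-values rest on the scatter of these samples alone, which may be technical, and 2 lines do not stand for fibroblasts at large. The sources used here do not give the siRNA sequences or how many were used per gene.

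Hyaluronan is a long unbranched sugar chain of glucuronic acid and N-acetylglucosamine. Synthases in the plasma membrane make it from activated sugars and push it out of the cell, where proteoglycans and link proteins tie it into the matrix and receptors such as CD44 hold it at the surface. Fibroblasts turn it over quickly: in dermal fibroblasts CEMIP is known to start its breakdown, while hyaluronidases and exoglycosidases cut the fragments further. PTX3 binds TNFAIP6, and both take part in cross-linking hyaluronan through the heavy chains of inter-alpha-inhibitor.

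Although CD44 fell in both lines too, the promoters shown are those of CEMIP and PTX3, the members that fell most. They are the 250 bases before the gene start in RefSeq (GRCh38.p14), 5′ to 3′ on the plus strand, at chr15:80779120-80779369 for CEMIP and chr3:157436600-157436849 for PTX3, with motif matches on either strand in capitals.
CEMIP: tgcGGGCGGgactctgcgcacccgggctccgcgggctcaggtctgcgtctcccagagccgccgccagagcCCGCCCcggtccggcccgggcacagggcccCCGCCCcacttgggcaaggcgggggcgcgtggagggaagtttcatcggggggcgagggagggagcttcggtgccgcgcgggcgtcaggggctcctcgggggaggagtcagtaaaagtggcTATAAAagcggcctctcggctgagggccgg
PTX3: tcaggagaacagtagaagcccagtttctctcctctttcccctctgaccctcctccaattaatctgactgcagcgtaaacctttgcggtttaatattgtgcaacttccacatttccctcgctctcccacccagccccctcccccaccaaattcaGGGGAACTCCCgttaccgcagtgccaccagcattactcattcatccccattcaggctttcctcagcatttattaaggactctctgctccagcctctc
The motifs searched were TATAAA, the GC box GGGCGG, the AP-1 site TGANTCA and the kappaB site. In CEMIP the capitals mark TATAAA from 30 to 25 bases before the start and 3 GC boxes, and in PTX3 a single stretch from 97 to 87 bases before the start that holds 2 overlapping matches to the kappaB site, 1 on each strand. Neither promoter shared a motif with the other. Over the 35116 promoters of the table, the same window held TATAAA in 10.7%, a GC box in 42.6%, an AP-1 site in 6.57% and a kappaB site in 5.21%. Of the members, 9 have a promoter in that table. Apart from CEMIP none of the 9 held TATAAA, apart from PTX3 none held a kappaB site, and TNFAIP6 alone held an AP-1 site, TGAGTCA, from 129 to 123 bases before its start. GC boxes were not particular to CEMIP, as HAS1, HAS3, HYAL1, CD44 and VCAN held them too. A match is a run of letters and no evidence of binding. The share of G and C was 74.4% in the CEMIP window, 51.6% in that of PTX3 and 34.4% in that of TNFAIP6.

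Values are FPKM, fragment counts scaled by transcript length and sequencing depth, as the authors deposited them, so levels can be compared between genes. Means are given ± SD with n = 4 per siRNA, and log2 changes are SUPT4H1 siRNA minus control siRNA on the log2(FPKM + 1) scale, where the change of a gene at low FPKM comes out too small. SUPT4H1 mRNA stood at 1.56 ± 0.187 FPKM after SUPT4H1 siRNA and at 26.4 ± 1.29 FPKM after control siRNA, and was left at 5.89% of the control mean. All 10 fibroblast markers reached a mean of 1 FPKM in both arms and summed to 12200 to 14570 FPKM after SUPT4H1 siRNA and 13720 to 14620 FPKM after control siRNA. The 6 keratinocyte markers summed to 7.74 to 8.86 FPKM after SUPT4H1 siRNA and 7.67 to 8.64 FPKM after control siRNA, nearly all of it KRT10, while KRT5 and KRT1 were at 0 in all 8 samples. The T cell gene CD3E was at 0 in all 8 samples too, and the 4 melanocyte and 4 endothelial markers summed to under 1 FPKM in every sample. The 5 leukocyte markers summed to 59.4 to 78.1 FPKM after SUPT4H1 siRNA and 45.1 to 51.9 FPKM after control siRNA. Most of that was CD68, a lysosomal protein that fibroblasts also make, while PTPRC, the pan-leukocyte gene, averaged 0.123 FPKM after SUPT4H1 siRNA and 0.143 FPKM after control siRNA. The part of these markers in the results was not tested. Depth relative to the first control sample of line 1 was 0.82 to 0.981 in the SUPT4H1 siRNA samples and 0.863 to 1.13 in the control siRNA samples. FPKM are shares of a library. For 12 genes of mean FPKM 1 or more the deposited status was not OK in at least 1 sample, and these were not tested. In bulk RNA, fewer cells of a kind and less RNA per cell cannot be told apart.

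CEMIP and PTX3 fell the most among the hyaluronan genes, CD44 fell less, VCAN and HYAL2 rose, and HAS2 and TNFAIP6 did not pass the test over both lines. The test was limma with the line as block, with Benjamini-Hochberg adjustment over 11444 genes of mean FPKM 1 or more and a threshold of 0.05. Of the 10 members 7 passed that filter. CEMIP, PTX3 and CD44 are the 3 that fell and VCAN and HYAL2 the 2 that rose. Of all genes tested, 15.2% fell and 26.8% rose, 42.1% in all, so a call is common in this experiment and the members' counts are to be read against that. Their median log2 change was -0.17, beside 0.03 over all genes tested. Without the line term, as the series design groups the samples, 1.78% of genes fell and 3.56% rose, 5.34% in all, the same 3 members CEMIP, PTX3 and CD44 fell, and the calls of VCAN and HYAL2 were lost. In line 2, 3 members fell and 2 rose, where 15.9% of genes fell and 26.9% rose, 42.9% in all. In line 1, 4 members fell and 1 rose, where 11.7% of genes fell and 19% rose, 30.7% in all. The 10 genes held 0.148 to 0.156% of all FPKM after SUPT4H1 siRNA and 0.264 to 0.296% after control siRNA, most of it PTX3 and CD44.

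**Figure D1:**
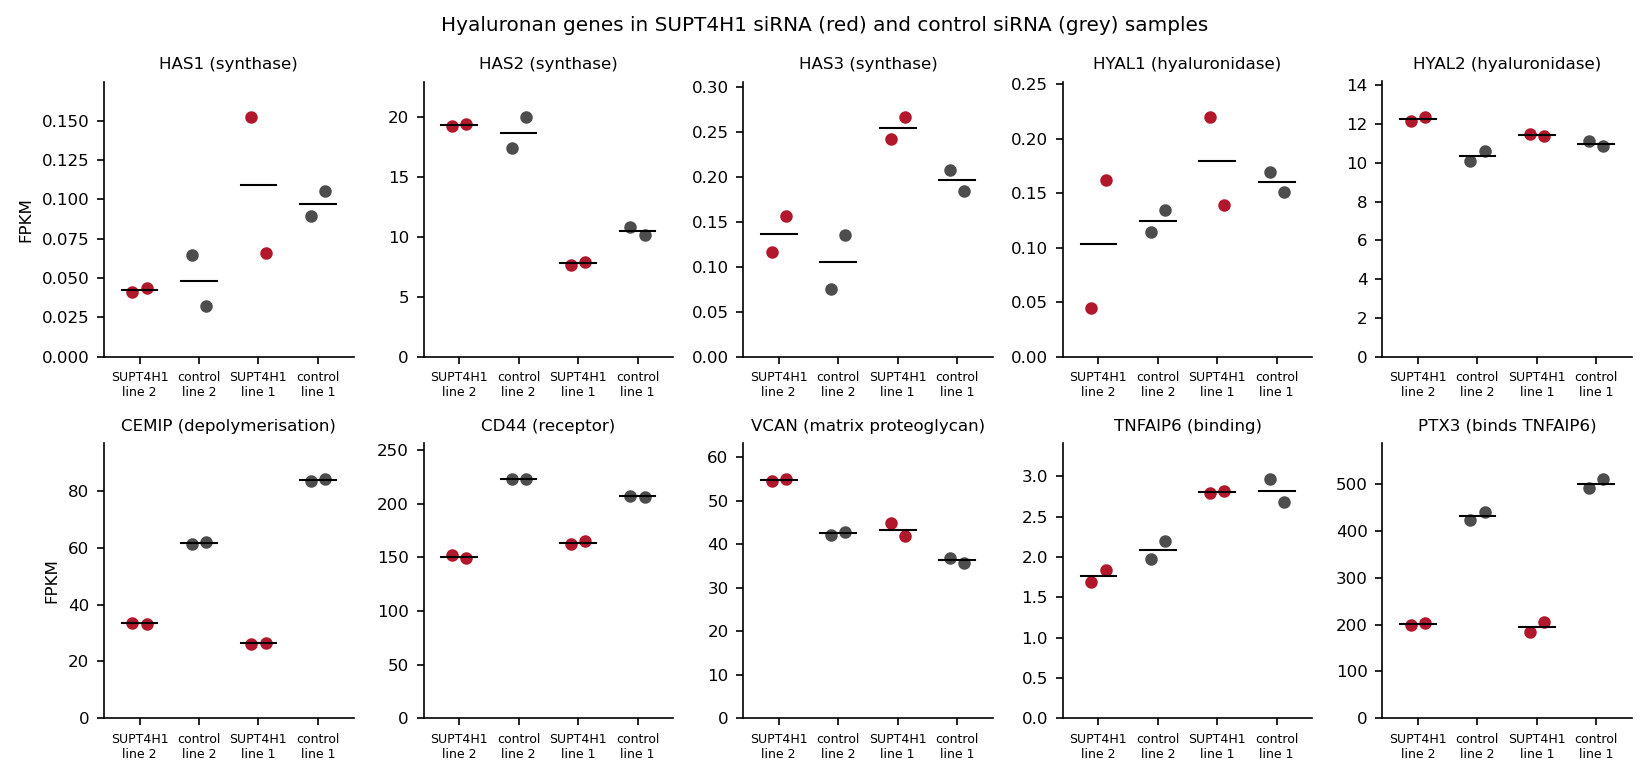
FPKM of the 10 hyaluronan genes in each sample (points; bars are the mean of 2 samples), by siRNA and line, on linear axes that start at 0. In CEMIP, CD44 and PTX3 all SUPT4H1 siRNA samples lie below all control siRNA samples, as in 5.19% of the genes tested. In HYAL2 all lie above, as in 11.4%. HAS2 is lower only in line 1, where the share of genes in such an order was not counted.

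The order of the members by level was much the same in every sample. PTX3 was the most abundant and CD44 came next in all 8 samples, although after SUPT4H1 siRNA they stood closer, with PTX3 at 183.9 to 204.9 FPKM and CD44 at 149.2 to 165.5 FPKM. CEMIP and VCAN changed places: VCAN stood above CEMIP in all 4 SUPT4H1 siRNA samples, and CEMIP above VCAN in all 4 control siRNA samples. HYAL2 and HAS2 followed, HAS2 above HYAL2 in line 2 and below it in line 1, under either siRNA. In line 1 their control siRNA values, 10.8 and 10.2 FPKM for HAS2 and 11.1 and 10.9 FPKM for HYAL2, had deposited intervals that overlapped. TNFAIP6 was next, and HAS3, HYAL1 and HAS1 were all at or under 0.266 FPKM, where HAS3 and HYAL1 could not be ordered.

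The synthases differed widely in level, and HAS2 alone stood high enough to test. HAS2, which makes long chains and is the main synthase of many fibroblasts, supplied nearly all synthase RNA. It lies at chr8:122625271-122653630 in hg19 on the minus strand. In line 2 it stood at 19.2 and 19.5 FPKM after SUPT4H1 siRNA and at 17.4 and 20.0 FPKM after control siRNA, and in line 1 at 7.69 and 7.89 FPKM after SUPT4H1 siRNA and at 10.8 and 10.2 FPKM after control siRNA. Of the genes tested, 16.6% lay lower without overlap within both lines, and the share for line 1 alone was not counted. For HAS2 the samples of line 2 overlapped, whereas in line 1 both SUPT4H1 siRNA samples lay below both control siRNA samples. Over both lines the log2 change was -0.17 (95% interval -0.358 to 0.0184, adjusted p = 0.132 in limma), and it passed only when control siRNA line 2 replicate 1 was left out (log2 change -0.25, adjusted p = 0.0214).

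By line, HAS2 fell in line 1, by 0.39 on the log2 scale or to 74.0% of control (adjusted p = 0.000724), while in line 2 the log2 change was 0.05 (interval -0.0762 to 0.177, adjusted p = 0.503 in limma). The difference of the responses, line 2 minus line 1, was 0.44 (SE 0.0799) and passed the test (adjusted p = 0.00805 in limma). A difference between the lines was called for 9.87% of all genes tested, positive in 5.39% and negative in 4.48%. HAS2-AS1, an antisense gene, overlaps HAS2 on the opposite strand, and since the sources used here do not state whether counting used strand, reads of the overlap may fall to either gene. HAS2-AS1 stood at 1.59 ± 0.168 FPKM after SUPT4H1 siRNA and 1.41 ± 0.0564 FPKM after control siRNA (adjusted p = 0.133 in limma).

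HAS1 and HAS3 were near the limit of detection. HAS1, at chr19:52216365-52227221, was listed at 0.0411 to 0.152 FPKM after SUPT4H1 siRNA and at 0.0322 to 0.105 FPKM after control siRNA. HAS3, at chr16:69139467-69152619, stood at 0.116 to 0.266 FPKM after SUPT4H1 siRNA and at 0.0749 to 0.208 FPKM after control siRNA. The half-width of the deposited interval was 70.7 to 121% of the value for HAS1 and 38.1 to 101% for HAS3. Whether a change of the size seen in CEMIP could be detected for HAS1 at this depth was not tested. With no filter on FPKM, which tests 18916 genes, the log2 change was 0.00326 for HAS1 (adjusted p = 0.949) and 0.0543 for HAS3 (adjusted p = 0.12 in limma). HAS3 overlaps CHTF8 on the other strand, which stood at 26.2 ± 0.492 FPKM after SUPT4H1 siRNA and 21.8 ± 0.351 FPKM after control siRNA. CHTF8 rose (log2 change 0.26, adjusted p = 7.3e-05 in limma), and whether its reads add to HAS3 was not tested.

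CEMIP, at chr15:81071712-81243999 in hg19, was the member with the largest fall over both lines. It stood at 33.5 and 33.3 FPKM after SUPT4H1 siRNA in line 2, against 61.3 and 62.1 FPKM after control siRNA, and at 26.0 and 26.7 FPKM after SUPT4H1 siRNA in line 1, against 83.5 and 84.2 FPKM after control siRNA. Replicates differed by less than 1 FPKM, and the deposited intervals had half-widths of 1.21 to 2.4% of the value. All 4 SUPT4H1 siRNA samples lay below all 4 control siRNA samples. That ordering was seen in 5.19% of the genes tested.

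The mean of CEMIP was 29.9 ± 4.08 FPKM after SUPT4H1 siRNA and 72.8 ± 12.8 FPKM after control siRNA, a log2 change of -1.25 (SE 0.128, adjusted p = 0.000111 in limma with the line as block). It was left at 54.1% of control in line 2 and at 31.4% in line 1. The log2 change was -0.87 in line 2 (SE 0.0269, adjusted p = 5.11e-08) and -1.63 in line 1 (SE 0.0269, adjusted p = 6.15e-10 in limma). The difference of the 2 responses was 0.77 (SE 0.038, adjusted p = 6.07e-06 in limma), and 51 of the 11444 genes, CEMIP included, had a difference at least as large. MIR549A, which overlaps CEMIP, was listed at 0 in all samples. Line 2, with the lower control level of CEMIP, kept the higher level after SUPT4H1 siRNA. Only 4 genes tested, CEMIP included, had a log2 change over both lines at or below that of CEMIP. PTX3 came next, close behind at -1.23, and in line 2 its log2 change of -1.1 lay below the -0.87 of CEMIP.

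Of the hyaluronidase members HYAL2 rose by a small amount, and HYAL1 was too low to test. HYAL2, a surface enzyme anchored by a lipid that cuts long hyaluronan into intermediate fragments, lies at chr3:50355221-50360281. It stood at 12.2 and 12.3 FPKM after SUPT4H1 siRNA in line 2, against 10.1 and 10.6 FPKM after control siRNA, and at 11.5 and 11.4 FPKM after SUPT4H1 siRNA in line 1, against 11.1 and 10.9 FPKM after control siRNA. All SUPT4H1 siRNA samples lay above all control siRNA samples, an ordering seen in 11.4% of genes. Its log2 change was 0.14 (SE 0.0382, adjusted p = 0.0186 in limma with the line as block), and the call was lost without the block (adjusted p = 0.125) and without either SUPT4H1 siRNA sample of line 2 (adjusted p = 0.0558 without replicate 1 and 0.0583 without replicate 2). It was called in line 2 (log2 change 0.22, adjusted p = 0.000842) and not in line 1 (0.05, adjusted p = 0.318), and the difference between the lines, 0.17, did not pass (adjusted p = 0.0644 in limma). HYAL1, the lysosomal hyaluronidase at chr3:50337320-50349812, stood at 0.0451 to 0.219 FPKM after SUPT4H1 siRNA and 0.114 to 0.169 FPKM after control siRNA, with interval half-widths of 57.5 to 149% of the value. It was under the filter, and with no filter its log2 change was -0.00306 (adjusted p = 0.973 in limma).

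Of the genes whose products bind hyaluronan directly, CD44 fell and VCAN rose. CD44, the main hyaluronan receptor of the cell surface, lies at chr11:35160417-35253949. It stood at 152.1 and 149.2 FPKM after SUPT4H1 siRNA in line 2, against 222.7 and 223.2 FPKM after control siRNA, and at 162.2 and 165.5 FPKM after SUPT4H1 siRNA in line 1, against 207.7 and 206.3 FPKM after control siRNA. The arms did not overlap, with SUPT4H1 siRNA lower, as in 5.19% of the genes tested. CD44 fell to 73.2% of control, with a log2 change of -0.45 (SE 0.0437, adjusted p = 8.46e-05 in limma). Its fall was the larger in line 2, where that of CEMIP was the smaller: the log2 change of CD44 was -0.56 in line 2 and -0.34 in line 1, and these differed by -0.23 (SE 0.0366, adjusted p = 0.00436 in limma).

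VCAN, which encodes versican, a large chondroitin sulfate proteoglycan that holds hyaluronan in the pericellular coat, lies at chr5:82767493-82878122. It stood at 54.6 and 55.1 FPKM after SUPT4H1 siRNA in line 2, against 42.2 and 42.9 FPKM after control siRNA, and at 44.9 and 41.9 FPKM after SUPT4H1 siRNA in line 1, against 36.8 and 35.8 FPKM after control siRNA. Within each line both SUPT4H1 siRNA samples were above both control siRNA samples, as in 28.8% of the genes tested, while across lines the arms overlapped. VCAN rose to 124.5% of control, with a log2 change of 0.30 (SE 0.0321, adjusted p = 0.000126 in limma with the line as block, and 0.159 without the block). It was called in both lines, with log2 changes of 0.36 in line 2 and 0.25 in line 1. The difference between them, 0.11 (interval -0.00368 to 0.219), did not pass (adjusted p = 0.222 in limma).

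TNFAIP6, also called TSG-6, carries a hyaluronan-binding link module and transfers heavy chains of inter-alpha-inhibitor to hyaluronan. It lies at chr2:152214106-152236562. It stood at 1.69 and 1.84 FPKM after SUPT4H1 siRNA in line 2, against 1.97 and 2.20 FPKM after control siRNA, and at 2.79 and 2.81 FPKM after SUPT4H1 siRNA in line 1, against 2.97 and 2.68 FPKM after control siRNA. The arms overlapped in line 1 and did not in line 2, an order whose share over all genes was not counted. The log2 change over both lines was -0.08 (interval -0.195 to 0.0306, adjusted p = 0.216 in limma), and neither line was called. Deposited intervals were wide, with half-widths of 16.6 to 22.3% of the value. Of the genes that overlap TNFAIP6, MIR4773-1 was listed at 0 in all samples and LOC101929319 at no more than 0.0148 FPKM.

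PTX3, a secreted pentraxin of innate immunity that binds TNFAIP6, fell in both lines. It lies at chr3:157154580-157161417. It stood at 198.1 and 202.7 FPKM after SUPT4H1 siRNA in line 2, against 422.5 and 439.4 FPKM after control siRNA, and at 183.9 and 204.9 FPKM after SUPT4H1 siRNA in line 1, against 490.6 and 510.9 FPKM after control siRNA. The arms lay far apart, and an order without overlap, SUPT4H1 siRNA lower, was seen in 5.19% of the genes tested. The lines met at about the same level after SUPT4H1 siRNA. PTX3 was left at 42.4% of control, with a log2 change of -1.23 (SE 0.0571, adjusted p = 1.57e-06 in limma). The log2 change was -1.10 in line 2 and -1.36 in line 1. The difference of 0.26 passed (adjusted p = 0.0396 in limma), but without 7 of the 8 samples, left out 1 at a time, it did not (adjusted p up to 0.124). PTX3 overlaps VEPH1, a gene of the opposite strand, which stood at 3.40 and 3.32 FPKM after SUPT4H1 siRNA in line 2, against 3.09 and 2.87 FPKM after control siRNA, and at 3.80 and 3.99 FPKM after SUPT4H1 siRNA in line 1, against 5.22 and 5.50 FPKM after control siRNA. The highest value of VEPH1 was thus 5.50 FPKM and the lowest of PTX3 183.9 FPKM.

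**Figure D2:**
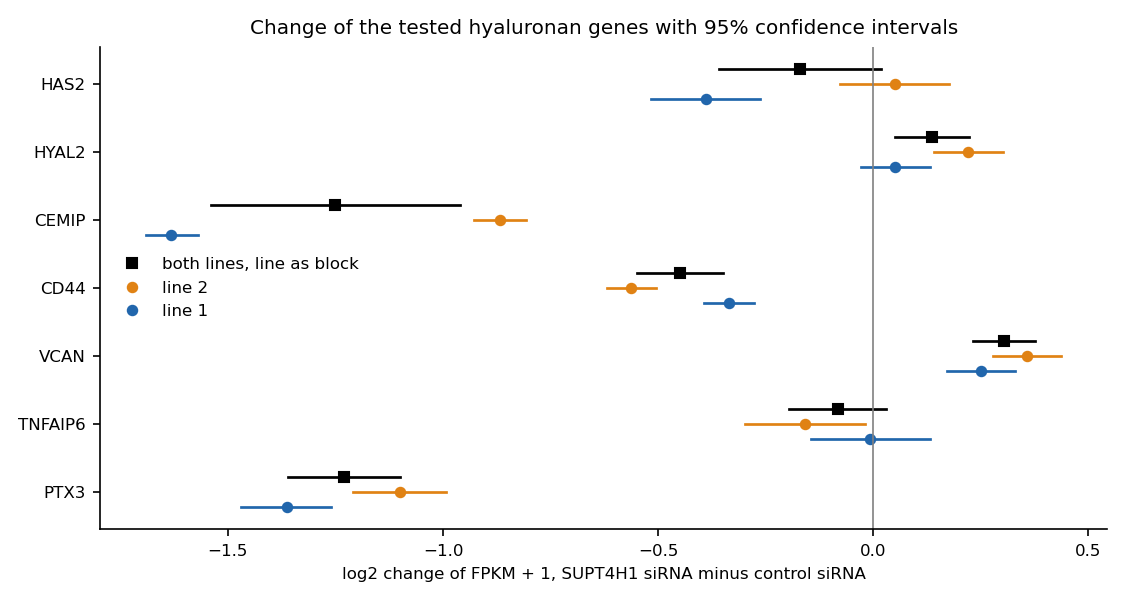
Log2 change of FPKM + 1, SUPT4H1 siRNA minus control siRNA, for the 7 hyaluronan genes tested, over both lines with the line as block (squares) and in each line (circles), with 95% confidence intervals. CEMIP at -0.87 in line 2 and -1.63 in line 1 and HAS2 at 0.05 in line 2 and -0.39 in line 1 show the widest gaps between the lines.

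To set CEMIP against the other members, the ratio of FPKM within each sample is given by siRNA, with the difference in mean log2 ratio of FPKM + 1. The ratio of FPKM does not depend on the scaling of a sample, while the log2 ratio of FPKM + 1 does to a small degree, most of all for TNFAIP6. CEMIP and PTX3 were set against the others with their falls known, so the ratios are a description of the values above and carry no test.

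The ratio of CEMIP to VCAN was 0.613 and 0.605 after SUPT4H1 siRNA in line 2, against 1.45 in both control siRNA samples, and 0.58 and 0.636 after SUPT4H1 siRNA in line 1, against 2.27 and 2.35 after control siRNA. The lines met at one level after SUPT4H1 siRNA, from different control levels. The log2 ratio was lower by 1.55 on average (difference -1.55). The ratio of CEMIP to HYAL2 was 2.27 to 2.76 after SUPT4H1 siRNA and 5.85 to 7.73 after control siRNA (log2 difference -1.39). The ratio of CEMIP to CD44 was 0.16 to 0.223 after SUPT4H1 siRNA and 0.275 to 0.408 after control siRNA, with the log2 difference at -0.30 in line 2 and -1.30 in line 1. The ratio of CEMIP to TNFAIP6 was 18.1 and 19.9 after SUPT4H1 siRNA in line 2, against 28.3 and 31.1 after control siRNA, and 9.32 and 9.48 after SUPT4H1 siRNA in line 1, against 28.1 and 31.4 after control siRNA (log2 difference -1.17).

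Against the synthase HAS2, the ratio of CEMIP was 1.74 and 1.71 after SUPT4H1 siRNA in line 2, against 3.52 and 3.11 after control siRNA, and 3.39 and 3.38 after SUPT4H1 siRNA in line 1, against 7.69 and 8.27 after control siRNA. The ratio was lower after SUPT4H1 siRNA in each line, but the control siRNA samples of line 2 met the SUPT4H1 siRNA samples of line 1 (log2 difference -1.08). The ratio of CEMIP to PTX3 overlapped between the arms: it was 0.13 to 0.169 after SUPT4H1 siRNA and 0.141 to 0.17 after control siRNA, with a log2 difference of -0.02. Within the lines it went opposite ways, 0.23 in line 2 and -0.27 in line 1. The ratio of PTX3 to TNFAIP6 was 65.9 to 118 after SUPT4H1 siRNA and 165 to 214 after control siRNA (log2 difference -1.15).

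**Figure D3:**
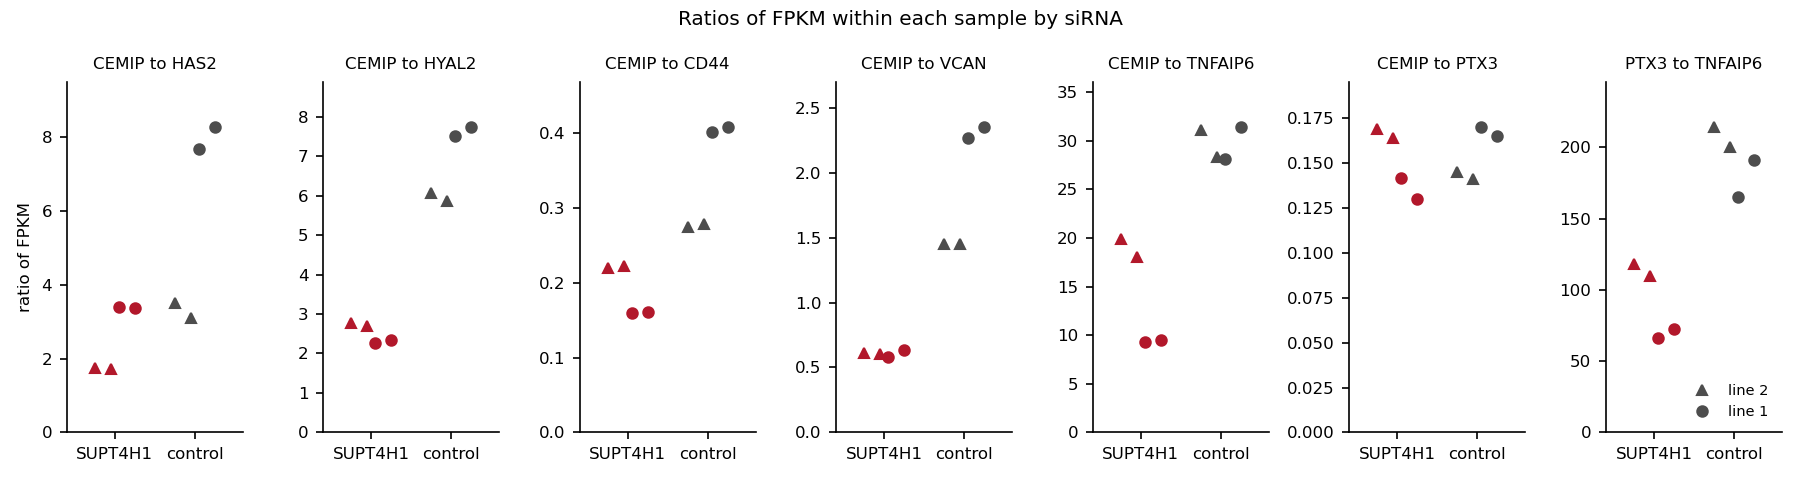
Ratio of FPKM within each sample for 7 pairs of hyaluronan genes, SUPT4H1 siRNA beside control siRNA, with triangles for line 2 and circles for line 1, on linear axes that start at 0. The arms stand apart in 5 pairs, overlap in CEMIP to HAS2 and CEMIP to PTX3, and the ratio of CEMIP to VCAN is 0.58 to 0.636 in all SUPT4H1 siRNA samples.

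The wider pathway comprised 37 further genes, of which 16 passed the filter. Of these 1 rose, 5 fell and 10 were not called, with a median log2 change of -0.01, beside 0.03 over all genes tested. That stands against 26.8% of all genes that rose and 15.2% that fell. Without the block 0 of the 16 rose in limma (HYAL3 alone at an unadjusted p under 0.05) and 1, TMEM2, fell. Among all genes 3.56% rose and 1.78% fell without the block. Of the 7 enzymes of precursor supply, UGDH, UGP2, UAP1, GFPT1, GFPT2, GNPNAT1 and PGM3, all tested, 0 were called over both lines, with log2 changes of -0.05 to 0.08. UGDH, which makes UDP-glucuronic acid, stood at 22.2 ± 2.97 FPKM after SUPT4H1 siRNA and 22.1 ± 2.00 FPKM after control siRNA. Without a block 0 of the 7 were called either, and the unadjusted p was above 0.05 for all 7 in both fits. In line 2 alone 1 of the 7 rose and 1 fell, where 26.9% of all genes tested rose and 15.9% fell. UAP1, which makes UDP-N-acetylglucosamine, rose in line 2 (log2 change 0.26, adjusted p = 0.000119 in limma) and its response differed between the lines (difference 0.35, adjusted p = 0.00103 in limma). GFPT1, which starts the hexosamine pathway, fell in line 2 (log2 change -0.12, adjusted p = 0.0161 in limma), and the difference between the lines, -0.14, did not pass (adjusted p = 0.0916 in limma).

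Of 7 other degradation genes 4 were tested, 1 rose and 2 fell, where 26.8% of all genes rose and 15.2% fell. Without the block 0 rose and 1 fell, where 3.56% of all genes rose and 1.78% fell. TMEM2, now called CEMIP2, a surface protein related to CEMIP that has been reported to cut hyaluronan, fell. It stood at 4.41 and 4.51 FPKM after SUPT4H1 siRNA in line 2, against 5.78 and 6.02 FPKM after control siRNA, and at 3.40 and 3.50 FPKM after SUPT4H1 siRNA in line 1, against 5.16 and 5.28 FPKM after control siRNA. The arms did not overlap, with SUPT4H1 siRNA lower, as in 5.19% of the genes tested. The log2 change was -0.41 (SE 0.0381, adjusted p = 6.57e-05 in limma with the line as block, and 0.044 without it). HEXA, a lysosomal hexosaminidase gene, stood at 62.4 ± 2.59 FPKM after SUPT4H1 siRNA and 59.7 ± 2.77 FPKM after control siRNA and was not called (adjusted p = 0.186 in limma). HYAL3, of the same family as HYAL1 and HYAL2, stood at 2.89 ± 0.80 FPKM after SUPT4H1 siRNA and 1.94 ± 0.243 FPKM after control siRNA. It rose with the line as block (log2 change 0.38, adjusted p = 0.00359) and not without it (adjusted p = 0.177). It overlaps NAT6, at 4.41 ± 0.444 FPKM after SUPT4H1 siRNA and 4.10 ± 0.232 FPKM after control siRNA, so reads may be shared between them. GUSB, lysosomal beta-glucuronidase, fell by 0.09 on the log2 scale (adjusted p = 0.0479, and 0.894 without the block, in limma). SPAM1, HYAL4 and HYALP1 were listed at 0 in all samples.

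Of 16 other binding proteins and receptors 4 were tested. With the line as block 0 rose and 3 fell, where 26.8% of all genes tested rose and 15.2% fell. Without the block 0 were called, all 4 at an unadjusted p above 0.05 in limma, where 3.56% of all genes rose and 1.78% fell. HAPLN1 and HAPLN3 encode link proteins that fasten proteoglycans such as versican to hyaluronan. HAPLN3 stood at 1.07 and 0.967 FPKM after SUPT4H1 siRNA in line 2, against 1.13 and 1.09 FPKM after control siRNA, and at 2.52 in both samples after SUPT4H1 siRNA in line 1, against 4.19 and 4.73 FPKM after control siRNA (adjusted p = 0.0228 over both lines in limma). The responses differed between the lines (difference 0.57, adjusted p = 0.00331 in limma). HAPLN1 was above 1 FPKM in line 2 only, at 5.2 and 5.81 FPKM after SUPT4H1 siRNA, against 7.11 and 7.32 FPKM after control siRNA, while all 4 samples of line 1 were at 0.0512 to 0.111 FPKM, so its call (adjusted p = 0.0338 in limma) rests on line 2. HABP4, an intracellular protein first found by its binding to hyaluronan, fell by 0.10 on the log2 scale (adjusted p = 0.0278 in limma). LAYN, a membrane receptor for hyaluronan, stood at 42.0 ± 3.0 FPKM after SUPT4H1 siRNA and 41.5 ± 2.46 FPKM after control siRNA and was not called (adjusted p = 0.657 in limma).

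Of the 7 genes for inter-alpha-inhibitor chains, ITIH5 alone was tested. It stood at 48.8 ± 5.53 FPKM after SUPT4H1 siRNA and 52.9 ± 10.6 FPKM after control siRNA and was not called over both lines (adjusted p = 0.156), while the lines differed (difference -0.24, adjusted p = 0.0401 in limma). ITIH1 and ITIH6 were listed at 0 in all samples, ITIH2 and ITIH3 stayed at or under 0.0157 FPKM, and AMBP, the gene of the light chain bikunin, stayed at or under 0.384 FPKM. ITIH4, also under the filter, stood at 0.261 to 0.863 FPKM after SUPT4H1 siRNA and 0.332 to 0.699 FPKM after control siRNA. In plasma the heavy chains that TNFAIP6 moves come from ITIH1, ITIH2 and ITIH3, which liver makes.

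**Figure D4:**
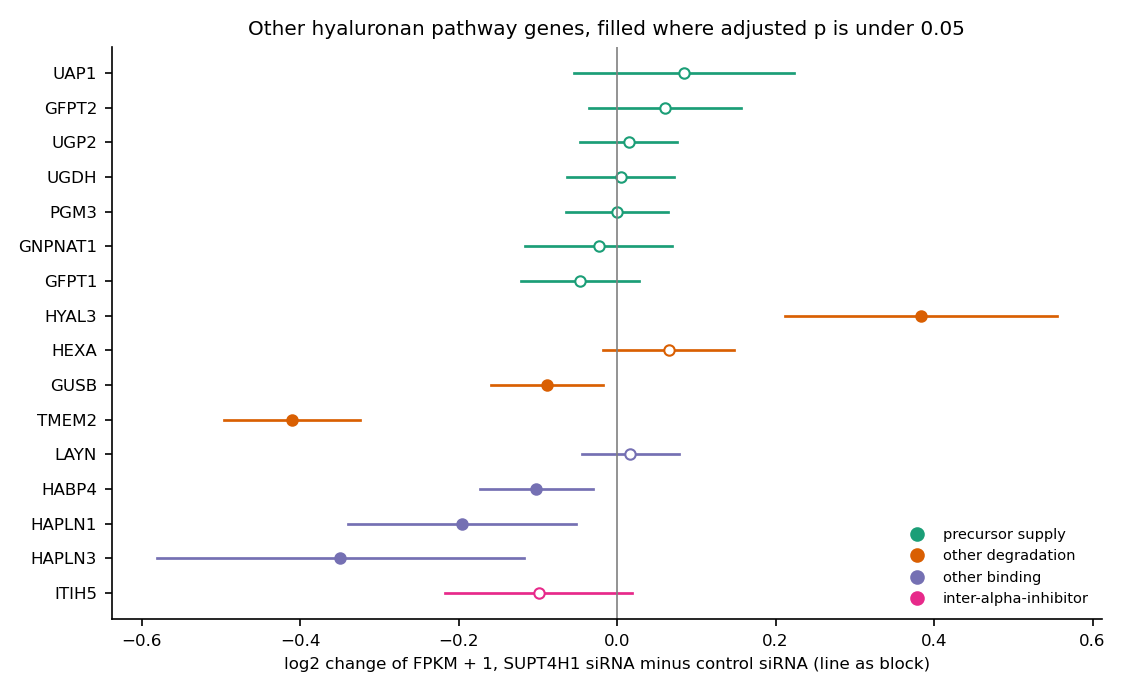
Log2 change of FPKM + 1, SUPT4H1 siRNA minus control siRNA, with 95% confidence intervals for the 16 tested genes of the wider hyaluronan pathway, grouped by role and filled where the adjusted p is under 0.05. The 7 precursor genes lie near 0, TMEM2 is the lowest at -0.41 and HYAL3 the highest at 0.38.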

How the data were processed

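The authors deposited 1 table per sample of FPKM values with interval bounds and a status for each row, on hg19 per the submitters' processing notes. Aligner, quantification tool, annotation and use of strand: not given in the sources used here. Locus starts were raised by 1 to count from 1. Of 27032 rows, 2141 with a locus under 200 bases were left out, rows of 1 symbol were summed, and genes of mean FPKM 1 or more with status OK in every sample were tested. limma 3.58.1 in R 4.3.3 was fitted to log2(FPKM + 1) with a mean-variance trend, 2-sided, with the line as block. A fit of 4 group means gave the responses by line and their difference. The line pairs the arms: deviations of same-line samples from their arm means correlated at 0.883 to 0.899. Relative depth came from rows whose interval matched 1, 2 or 3 fragments, within a tolerance of 0.005. Intervals cover counting error only. Motifs were sought in RefSeq promoters (GRCh38.p14). The fits were run on simulated data with known changes and normal scatter set from the samples, which cannot show whether that scatter is technical. An exact permutation test of the ratios is not used for any result, since the falls of CEMIP and PTX3 were known. Its p serves only in the count of values kept under the alternatives. Members and gene lists were chosen with earlier results of these data known. The text names all members, SUPT4H1, genes that overlap a member, and genes of the wider list that passed the test or are counted; wider list genes under the filter, and NAT6, were named after their values were seen. A gene of the wider list is not reported here and is in none of its counts. Tables were prepared with pandas 2.3.3 and numpy 2.4.6 under Python 3.11.15, and plots with matplotlib 3.10.9. Alternatives changed the block, pseudocount, filter, scaling, trend and samples.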

Additional observations from a re-analysis of the deposited data

Results flagged for a closer look

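The response to SUPT4H1 siRNA differed between the lines, by a test of the difference itself in limma, for 4 of the 7 members tested, where 9.87% of all genes tested did. The difference, line 2 minus line 1, was 0.77 for CEMIP (adjusted p = 6.07e-06), 0.44 for HAS2 (adjusted p = 0.00805), -0.23 for CD44 (adjusted p = 0.00436) and 0.26 for PTX3 (adjusted p = 0.0396). That of PTX3 lost its call without 7 of the 8 samples, left out 1 at a time, with no filter on FPKM (adjusted p = 0.149) and with no mean-variance trend (adjusted p = 0.084), and that of HAS2 with no filter (adjusted p = 0.0617). CEMIP, HAS2 and PTX3 fell more in line 1, or in line 1 alone for HAS2, and CD44 fell more in line 2. SUPT4H1 itself was left at 6.30% of control in line 2 and at 5.46% in line 1, and its response did not pass the test of a difference between the lines (adjusted p = 0.397 in limma). The part of that in the results was not tested.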

How the results depend on the processing

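The falls of CEMIP, PTX3 and CD44 kept their calls under every alternative run. Without the replicate block by line, 407 genes rose and 204 fell, against 3071 and 1743 with it, VCAN (0.30, adjusted p = 0.159) and HYAL2 (0.14, adjusted p = 0.125) lost their calls, and 0 genes of the wider list rose and 1 fell in limma (HYAL3 had an unadjusted p of 0.0279). Replicate numbers within a line do not pair the samples (correlations of 0.103 in line 1 and 0.0502 in line 2); a replicate block by line and number left 1 wider list gene fallen and changed no call of a member. With no filter on FPKM, 3 wider list genes fell, and the differences between the lines of HAS2 (0.44, adjusted p = 0.0617) and PTX3 (0.26, adjusted p = 0.149) lost their calls, that of PTX3 also with no mean-variance trend (0.26, adjusted p = 0.084). At a mean FPKM of at least 5, 0 wider list genes rose and 2 fell, and TNFAIP6 and, of the called wider list genes, HYAL3, TMEM2, HAPLN1 and HAPLN3 were not tested. Scaling by median ratios gave 2319 rises and 2311 falls, so that 50.1% of calls were rises against 63.8% as deposited, moved the median of all genes to 0.000658 from 0.0306 and changed no call of a member. Leaving out each sample in turn gave log2 changes of -0.25 to -0.11 for HAS2, 0.11 to 0.16 for HYAL2 and -0.12 to -0.05 for TNFAIP6, a difference between the lines of 0.18 to 0.34 for PTX3 and 0.06 to 0.16 for VCAN, 2 to 4 falls in the wider list, and log2 differences of -1.31 to -0.86 for CEMIP to HAS2 and -0.0732 to 0.0491 for CEMIP to PTX3, whose sign changed. In all, 178 of 200 values without 1 sample and 109 of 122 under other alternatives were kept. For log2 changes and differences between the lines, kept means the same direction and side of the threshold. For ratios it means the same direction and side of 0.05 in a permutation test that is otherwise not used. For gene counts it means a count close to the main one. Fits without 1 sample hold fewer samples, the other alternatives hold them all, and the cause of the values not kept was not tested. HAS1, HAS3 and HYAL1 were under the filter in the main fit, with wide deposited intervals.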

Other observations

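ACAN, which encodes aggrecan, the hyaluronan-binding proteoglycan of cartilage, was under the filter over all samples and was picked out after its values were seen. In line 2 it was listed at 0.00276 and 0.0116 FPKM after SUPT4H1 siRNA, against 0.0339 and 0.0483 FPKM after control siRNA, and in line 1 at 0.616 and 0.703 FPKM after SUPT4H1 siRNA, against 2.02 and 2.14 FPKM after control siRNA. HMMR, a hyaluronan-binding protein of the mitotic spindle, was also under the filter, at 0.912 and 0.953 FPKM after SUPT4H1 siRNA in line 2, against 0.808 and 0.813 FPKM after control siRNA, and at 0.403 and 0.399 FPKM after SUPT4H1 siRNA in line 1, against 0.453 and 0.479 FPKM after control siRNA. Neither was tested.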
